A study of Mus musculus with 6 samples.

Results

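The lateral wall of the normal young adult mouse cochlea was described by its gene expression in the 3 young libraries of a series of 6. Members were taken by the age label alone, so no measured value chose them. Each young library came from 1 CBA/CaJ mouse, an inbred strain, aged 2 months, with both cochleas of the mouse pooled. The other 3 libraries, from mice aged 2.5 years, enter no comparison here. No genetic change or treatment is named for any mouse, and the labels do not give a sex. By tissue label and title the samples are lateral wall, but their source label reads auditory nerve cells. The lateral wall was dissected whole, so a library mixes epithelium, connective tissue, vessels and whatever adjoining tissue came with it. In such bulk RNA, fewer cells of a type and less RNA per cell cannot be told apart.

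The lateral wall holds the stria vascularis and the spiral ligament. In the stria, marginal cells secrete potassium into endolymph, intermediate cells (pigment cells related to melanocytes) generate the endocochlear potential through a potassium channel, and basal cells seal the layer with tight junctions. Fibrocytes of the ligament, joined by gap junctions, return potassium to the stria, and root and spindle cells line its edges. Loss of several of these transporters and junction proteins causes deafness in mice and humans.

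Values are normalised read counts, which were compared between libraries. Ranks and shares by normalised read count say how much of the sequencing a gene took, and longer genes take more. Levels of different genes were compared per length, in TPM (the normalised count per kilobase of exon, scaled to the same total in every library). Triplets of values follow the order young replicates 1, 2 and 3, and ± marks the SD over these 3 mice (n = 3). Reads recovered from the deposited values summed to 37843850, 37055355 and 38179961, so depth differed by a factor of at most 1.03. Of 17091 gene symbols, 41 were at 0 in all young libraries and 13102 had a mean of at least 50 normalised read counts. The lowest sum of a symbol over all 6 libraries was 9.33, so those 41 had values in the old mice. Medians and shares of all genes are over these symbols and not over every gene of the mouse. Among those 13102, the highest library exceeded the lowest by more than 2-fold in 374 genes (2.85%), which is the background for the counts of variable members given with each gene group. Young replicate 1 stood further from the others than they stood from each other. Between young replicates 1 and 2, 244 genes differed by more than 2-fold, between 1 and 3, 191, and between 2 and 3, 95. Of all 13102 genes, 5504 were highest in young replicate 1, 4187 in young replicate 2 and 3411 in young replicate 3, against which the counts of list members highest in a library are to be read. On leaving out a mouse, the count past 2-fold was 105 (leaving out young replicate 1), 196 (leaving out 2) and 249 (leaving out 3), with the minimum mean taken over the pair of libraries left. For a given gene, the ratio over 2 libraries cannot exceed that over all 3. Counts with a library left out, here and for the gene lists, are lower partly for this reason. With 1 group there is nothing to test between conditions, and all values are descriptions.

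A few secreted proteins took much of the sequencing. Ptgds, which encodes the lipocalin-type prostaglandin D synthase, stood at 1630000, 1480000 and 1400000 normalised read counts as deposited in rounded form, and alone held 3.85% ± 0.257 of the total. It was highest in young replicate 1 and lowest in young replicate 3, with a ratio of 1.16 between them. Apod, which encodes the lipid carrier apolipoprotein D, stood at 1170000, 1050000 and 1100000 normalised read counts. Coch encodes cochlin, a secreted matrix protein of the inner ear, and lies at chr12:51593341-51605771 (GRCm38). Its normalised read counts were 821557, 725083 and 816002, lowest in young replicate 2. These 3 genes together took 8.70% ± 0.366 of the total, the 10 highest took 13.3% ± 0.505, and 754 genes made up 50% of the mean total.

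**Figure D1:**
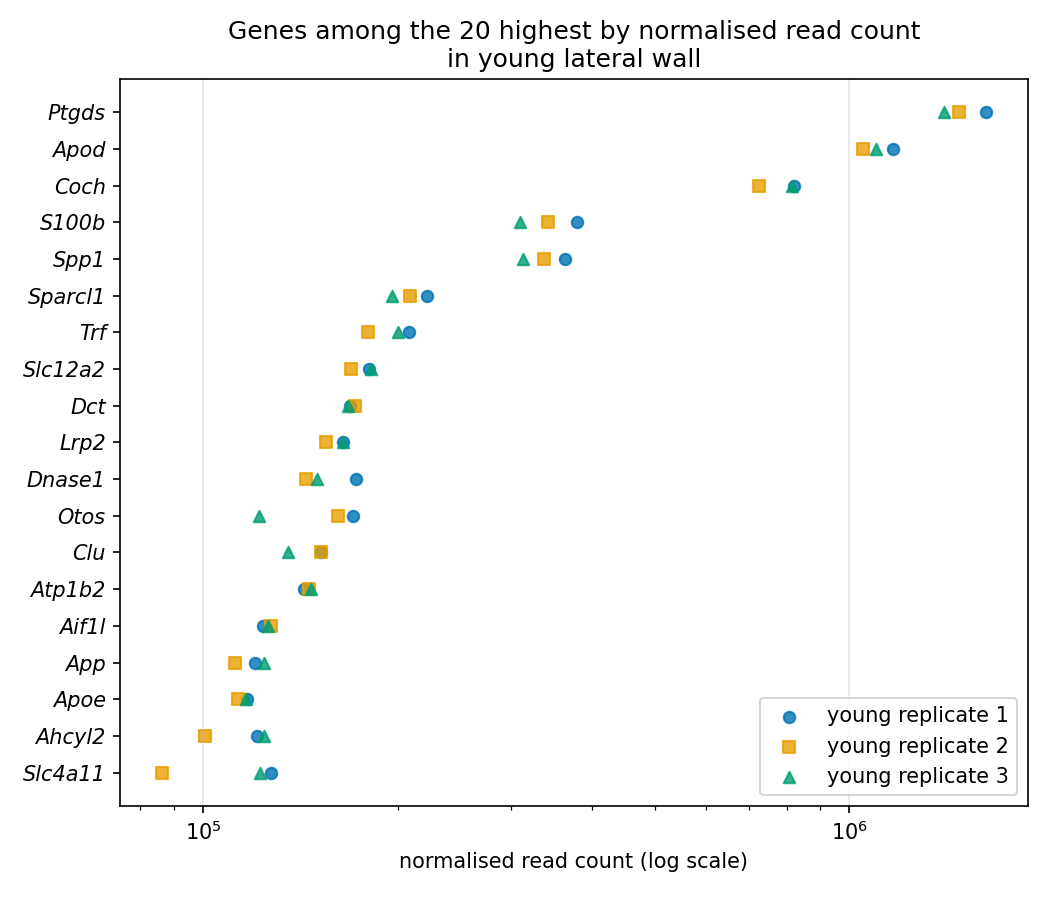
Normalised read count (log scale) of genes among the 20 with the highest means in young lateral wall; each point is 1 young library. Ptgds, Apod and Coch took more reads than the rest, and the 3 libraries of most genes nearly coincide.

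Ranked per length, Ptgds (81428 ± 3639 TPM), Apod (38381 ± 1137 TPM), Coch (23486 ± 1452 TPM), S100b (20668 ± 1440.1 TPM) and Spp1 (18289.8 ± 843 TPM) were the 5 highest genes. S100b encodes a calcium-binding protein known in ligament fibrocytes and in glia, and Spp1 encodes osteopontin, a secreted phosphoprotein. S100a1, a relative of S100b, followed at 7599 ± 311 TPM, and Fbxo2, a substrate receptor of a ubiquitin ligase, stood at 5585 ± 157 TPM. Other secreted products among the 20 highest by normalised read count were Sparcl1, a matricellular protein (6363 ± 224 TPM), Trf, the iron carrier transferrin (5278 ± 314 TPM), Clu, the chaperone clusterin (3812 ± 211 TPM), and Apoe, a lipid carrier (4832 ± 145 TPM). The list also held Lrp2, which encodes the endocytic receptor megalin (864 ± 32.9 TPM), and Dnase1, a secreted nuclease, whose 4506 TPM is uncertain because its exons overlap those of Trap1 on the opposite strand and the strand setting is not given.

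The 7 genes that mark lateral wall cells were detected in every library, but so were most genes. Only 315, 246 and 245 of the 17091 symbols were at 0 in young replicates 1, 2 and 3. Detection alone therefore says little about the tissue label, and the levels are given. Otos encodes otospiralin, a protein of ligament fibrocytes, at chr1:92644218-92648841 on the minus strand. Its normalised read counts were 170591, 161608 and 121947, with young replicate 3 below both others. S100b stood at 378768, 342016 and 309808 normalised read counts and had the same order of libraries. Dct, an enzyme of melanin synthesis that marks intermediate cells, was nearly level at 168968, 172081 and 167796 normalised read counts. Kcnj10, the potassium channel of intermediate cells, stood at 41737, 49662 and 44716 normalised read counts, with the highest value in young replicate 2. Kcnq1 and Kcne1 encode the alpha and beta subunit of the apical potassium channel of marginal cells. Kcnq1 had 12510.5, 10739 and 11695 and Kcne1 30938, 23286 and 27781 normalised read counts, both lowest in young replicate 2. By mean normalised read count, Coch ranked 3, S100b 5, Dct 10, Otos 13, Kcnj10 67, Kcne1 122 and Kcnq1 400 of the 17091 symbols. Reads of Kcnq1 may include some of its antisense transcript Kcnq1ot1, with which it shares exonic bases.

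Against these levels, markers of nerve were low in tissue whose source label names the auditory nerve. The neuron list had a median of 1.08 TPM over its 13 measured members, where all genes with a length had a median of 12.0 TPM. Its highest member was Calb2, a calcium-binding protein that hair cells also express, at 13.9 TPM. Nefh, the heavy neurofilament, stood at 55.6, 120.3 and 31.7 and Snap25, a protein of synaptic vesicle fusion, at 138, 170.1 and 60.2 normalised read counts, both highest in young replicate 2. Of 7 neuron genes with a mean of at least 50, 4 passed 2-fold, where 2.85% of all genes did, and 194 of 1976 at means of 50 to 200. The 4 became 3, 3 and 1 on leaving out young replicates 1, 2 and 3 in turn. Of the 7, 3 were highest in young replicate 1 and 4 in young replicate 2. The summed level of the list was 35.99, 33.2 and 21.6 TPM. Glial genes were higher, with a median of 14.3 TPM over 12 members. Of these, Pmp22 (244 ± 44.2 TPM) and Sox10 (217 ± 56.9 TPM) are not restricted to glia, and Sox10 is a known regulator of intermediate cells.

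Marginal cell genes stood high as a group. Of the 16 list members, 12 were at 100 TPM or more, against 1568 of 16941 genes (9.26%) in the whole table, and the list median was 175 TPM. Atp1b2 (3188 ± 149.8 TPM) and Atp1b1 (2437 ± 20.9 TPM) encode beta subunits of the sodium-potassium pump, and the value of Atp1b1 is uncertain because it overlaps Nme7 on the opposite strand. Atp1b2 exceeded Atp1b1 by 0.39 ± 0.066 on the log2 scale, in 3 of 3 libraries, and by 0.25 when the longest transcript set the length. Atp1b2 stood at 143395, 146002 and 147123 normalised read counts, a spread of 1.03-fold from lowest to highest.

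Further steps of potassium secretion were represented at graded levels. Slc12a2, which carries sodium, potassium and chloride into marginal cells, stood at 180338, 169519 and 181735 normalised read counts (1451 ± 61.9 TPM). Kcne1 (759 ± 88.5 TPM) exceeded Kcnq1 (254 ± 13.5 TPM) by 1.57 ± 0.097 on the log2 scale, 2.97-fold, in every library. The value was 1.16 when the longest transcript set the length. Bsnd, which encodes barttin, a subunit of chloride channels, stood at 64.1 ± 7.85 TPM. Of the 14 genes in the potassium secretion list, 13 had a mean of at least 50. Of those, 0 varied by more than 2-fold between the mice, where 2.85% of all genes did. The list's median SD of log2 values was 0.107, near the 0.110 of all genes at means of 1000 to 5000 and the 0.0968 at 5000 or more. The list's mean deviation from the gene averages was 0.02, -0.01 and -0.01 on the log2 scale.

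Esrrb, a nuclear receptor needed for marginal cell identity, was the exception among marginal cell genes. It stood at 19136, 7063 and 11466 normalised read counts, so young replicate 1 was 2.71-fold above young replicate 2. None of the other 14 marginal cell genes with a mean of at least 50 passed 2-fold.

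Intermediate cell genes ranged over the widest interval of the strial lists. Ptgds, known from intermediate cells as well as from other cells, was the highest of the 20 members and Oca2 the lowest, at 0.163 ± 0.0838 TPM. The list median was 151 TPM. Gsta4, a glutathione transferase (3483 ± 227 TPM), Kcnj10 (752 ± 86.2 TPM), the melanosome transporter Slc45a2 (470.1 ± 19.8 TPM) and Gpnmb, a melanosomal glycoprotein (407 ± 30.99 TPM), were also high. The 3 enzymes of melanin synthesis did not stand at similar levels. Dct was at 2574 ± 99.6 TPM. Tyr, which catalyses the first step, was at 164 ± 16.8 TPM, from 15079.7, 12662 and 11569 normalised read counts. Dct exceeded Tyr by 3.97 ± 0.194 on the log2 scale, 15.7-fold, and by 4.51 with the longest transcript. Tyrp1, the third enzyme, stood at only 2.10, 24.9 and 21.4 normalised read counts. Per length Tyrp1 was at 0.519 ± 0.398 TPM, Pmel, the fibril protein of melanosomes, at 1.66 ± 0.413 TPM and Trpm1, a cation channel of melanocytes, at 0.431 ± 0.0905 TPM, all below the 12.0 TPM of the median gene. Mlana, another melanosomal protein, stood at 124 ± 5.99 TPM.

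Promoter bases of the 3 enzyme genes are shown because one short motif is common to all of them while their levels differ widely. MITF, the regulator of pigment cells whose own gene stood at 103 ± 17.9 TPM, is known to bind CATGTG in such promoters. The 250 bases before the start site that the RefSeq promoter table uses for each gene (GRCm38.p6) are written 5′ to 3′ on the gene's strand, with CATGTG or its reverse complement CACATG in capitals. The site used for Tyrp1 lies inside the RefSeq gene span, which begins at chr4 position 80834123, so its capitals fall within that span and not before it. The reference is the C57BL/6J genome and not that of CBA/CaJ.
Dct, chr14:118052247-118052496, minus strand: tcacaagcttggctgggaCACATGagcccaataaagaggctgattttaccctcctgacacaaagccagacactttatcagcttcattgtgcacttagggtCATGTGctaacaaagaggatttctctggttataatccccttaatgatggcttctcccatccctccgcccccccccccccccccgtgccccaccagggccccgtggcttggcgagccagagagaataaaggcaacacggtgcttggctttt
Tyr, chr7:87493513-87493762, minus strand: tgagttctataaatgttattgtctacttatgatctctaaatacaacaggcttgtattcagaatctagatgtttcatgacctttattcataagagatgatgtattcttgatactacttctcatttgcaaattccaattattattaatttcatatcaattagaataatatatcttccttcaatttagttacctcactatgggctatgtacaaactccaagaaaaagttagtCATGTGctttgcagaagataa
Tyrp1, chr4:80833963-80834212, plus strand: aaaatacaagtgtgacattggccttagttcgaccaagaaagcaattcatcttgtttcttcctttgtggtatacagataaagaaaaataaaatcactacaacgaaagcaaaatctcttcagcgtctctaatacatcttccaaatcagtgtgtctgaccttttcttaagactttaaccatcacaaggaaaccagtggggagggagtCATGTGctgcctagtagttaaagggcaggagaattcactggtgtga
The letters occurred 2 times in the Dct window and 1 time each in those of Tyr and Tyrp1. They were found in 12.3% of the 32851 promoters of the table, in 9.72% of the 13143 measured genes with a promoter there, and in 7 of the 15 intermediate cell genes with one. A match of letters does not show binding, and the lists were chosen with pigment genes in mind.

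Kcnj13, another inward rectifier channel, was the 1 of 17 intermediate cell genes with a mean of at least 50 that passed 2-fold, at 4190.1, 1331 and 1467 normalised read counts. Young replicate 1 was 3.15-fold above young replicate 2, while young replicates 2 and 3 lay close together. Its exons overlap those of Gigyf2 on the opposite strand, so the reads are uncertain.

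Basal cells were represented by Cldn11, the tight junction protein that seals them, at 28300.4, 23676 and 23989.9 normalised read counts (1209 ± 80.3 TPM). Slc2a1, a glucose transporter known in basal cells and in vessels, stood at 381 ± 27.2 TPM. Sox8, a transcription factor of the basal cell list, was the 1 member of 8 that passed 2-fold, with 1037, 2594 and 1909 normalised read counts. Among 18 tight junction genes, Cldn9 (991 ± 36.5 TPM) was next to Cldn11, and Cldn3 stood at 128 ± 4.02 TPM. The other 15 were below 100 TPM, and 0 of the 16 with a mean of at least 50 passed 2-fold.

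Gap junction genes split into a dominant pair and a low remainder. Gjb2 (2249 ± 168 TPM) and Gjb6 (2045 ± 73.7 TPM) encode the connexins of the cochlear syncytium. Gjb2 exceeded Gjb6 by 0.14 ± 0.056 on the log2 scale, but the order turned to -0.21 with the length of the longest transcript, so these data do not rank them. The third highest of 13 was Gjc3, a connexin of myelinating glia, at 32.1 ± 6.80 TPM. Gja1, the connexin of heart and astrocytes, stood at 3.56 ± 0.713 TPM, below Gjb2 by a log2 difference of 9.32 ± 0.368 (7.92 with the longest transcript). The list median was 1.54 TPM, and 6 members were under 1 TPM.

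**Figure D2:**
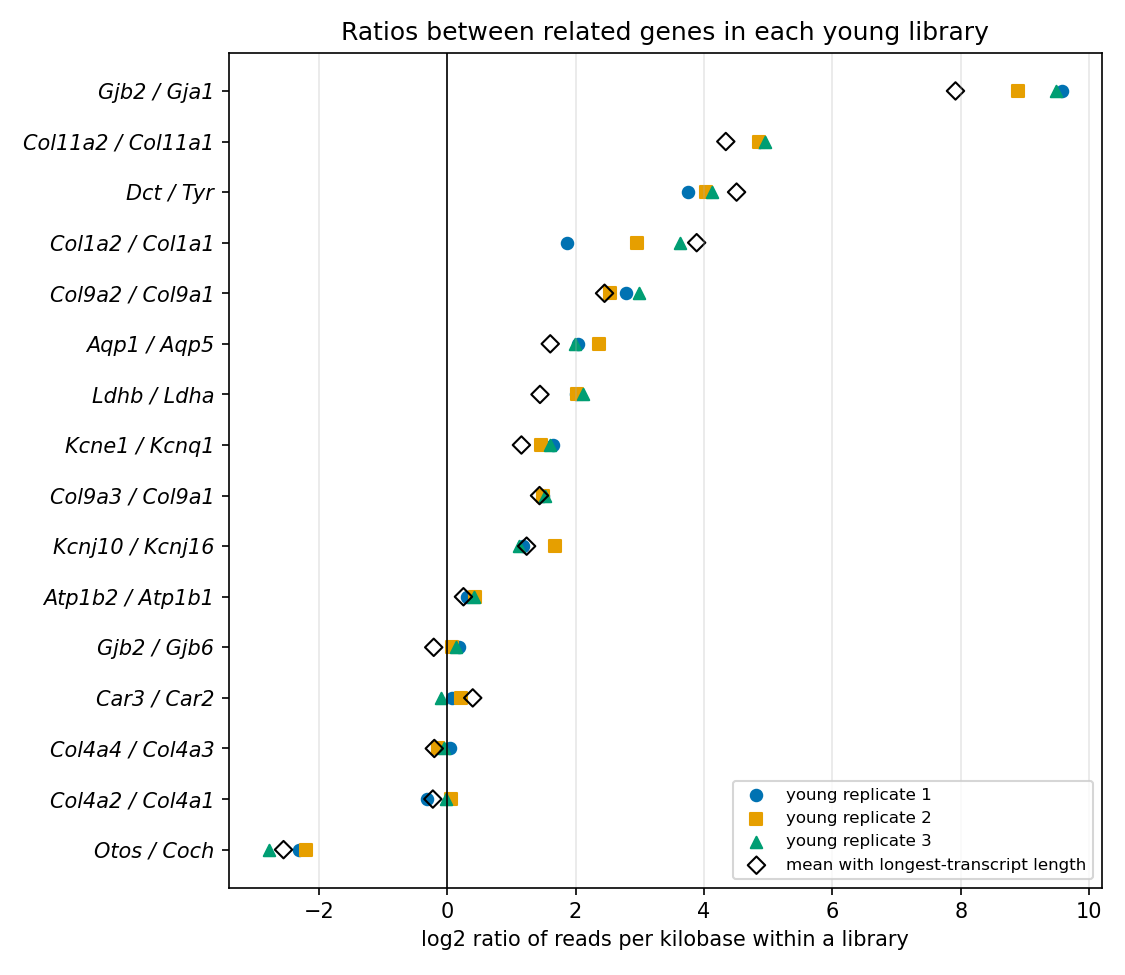
Log2 ratio of the levels per length of gene pairs, 1 filled point per young library, with an open diamond for the mean when the longest transcript sets the length. Points right of 0 mean that the first gene of a pair is higher; of the pairs drawn, Col1a2 over Col1a1 is spread the most, over 1.86 to 3.63. Tyrp1 over Tyr, which had 2 reads of Tyrp1 in young replicate 1, is not drawn.

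Fibrocytes of the ligament were represented at high levels. The fibrocyte list had a median of 225 TPM over 17 members, of which 12 were at 100 TPM or more. After Apod, Coch and S100b came Otos (4383 ± 660.1 TPM), 2.43 ± 0.308 below Coch on the log2 scale, and the carbonic anhydrases Car3 (3462 ± 498 TPM) and Car2 (3303 ± 403 TPM). Car3 stood at 132152, 108790 and 92912 and Car2 at 105875, 79524 and 83756 normalised read counts, both highest in young replicate 1. Their ratio did not keep 1 sign across libraries, but with the longest transcript Car3 was above Car2 in 3 of 3, by 0.40 on the log2 scale. Pou3f4, a transcription factor of otic mesenchyme whose loss causes deafness, stood at 6409, 8264 and 7333 normalised read counts and Tbx18, another mesenchymal factor, at 6786, 7558 and 7847. Otor, a secreted protein of the cochlea (4511, 2249.6 and 2909 normalised read counts), and Meis1, a homeodomain factor (599, 737 and 362), passed 2-fold. Of the 17 genes, 12 were highest in young replicate 1.

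A few members led the families that transport acid, base and water. Slc4a11, a membrane transporter of the bicarbonate transporter family, was at 127470, 86238 and 122398 normalised read counts (2001 ± 374 TPM), lowest in young replicate 2. Car14, a membrane-bound carbonic anhydrase, stood at 1461 ± 181 TPM, which is uncertain because of its overlap with Aph1a. Among the water channels, Aqp1, known from fibrocytes, stood at 395 ± 20.4 TPM and Aqp5, known from root cells, at 90.7 ± 16.01 TPM. Aqp1 was higher by 2.14 ± 0.204 on the log2 scale, and by 1.61 with the longest transcript. Aqp4 was at 10.5 ± 1.61 TPM, and Aqp9 was at 0 in 2 libraries.

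Spindle and root cells were represented by Slc26a4, which encodes the anion exchanger pendrin, at 25386, 23437 and 28588 normalised read counts (743 ± 85.6 TPM). Epyc, a small proteoglycan (553 ± 88.5 TPM, uncertain because of an antisense transcript), Kcnj16 (301 ± 44.7 TPM) and Anxa1 (199 ± 16.8 TPM) followed. Kcnj10 exceeded its partner Kcnj16 by 1.33 ± 0.310 on the log2 scale. Slc26a7, a chloride transporter of this list, passed 2-fold at 734, 1565 and 443 normalised read counts and was highest in young replicate 2. The proton pump subunit Atp6v1b1 had only 1 to 2 reads per library, while the widely expressed Atp6v1b2 stood at 65.8 ± 4.21 TPM.

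Among the collagens, Col11a2 and Col9a2 were the highest per length. Col11a2 stood at 46592, 49285 and 50554 normalised read counts (636 ± 47.4 TPM). Its log2 excess over Col11a1, its partner chain, was 4.89 ± 0.061 (4.34 with the longest transcript). Col9a2 stood at 427 ± 33.8 TPM, Col9a3 at 177 ± 15.5 TPM and Col9a1 at 62.5 ± 6.08 TPM. Col9a3 and Col9a1 kept their ratio closely, at 2.83-fold in favour of Col9a3, with an SD of 0.017 on the log2 scale. The ratio was 2.71-fold with the longest transcript. The paired basement membrane chains Col4a1 and Col4a2 stood at 27.9 ± 2.07 and 26.3 ± 2.46 TPM. Col2a1, the main collagen of cartilage, was at 29.2 ± 5.53 TPM. The chains of type I collagen, the collagen of bone and of most connective tissue, differed in spread. Col1a1 had 1352, 671 and 361 normalised read counts, whereas Col1a2 had 9302, 9884 and 8454. Per length Col1a2 exceeded Col1a1 by 2.82 ± 0.892 on the log2 scale, and by 3.89 with the longest transcript. Of 25 collagen genes, 24 had a mean of at least 50, and 3 of these (Col1a1, Col14a1 and Col4a3) passed 2-fold. Among the other matrix proteins, Sparc (1452 ± 124 TPM), a collagen-binding glycoprotein, and Dcn (647 ± 52.5 TPM) and Ogn (499.7 ± 49.1 TPM), both small leucine-rich proteoglycans, were the highest after Spp1 and Sparcl1. Postn, a matricellular protein, was the 1 member of the list past 2-fold, at 1344, 2196 and 640.2 normalised read counts.

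**Figure D3:**
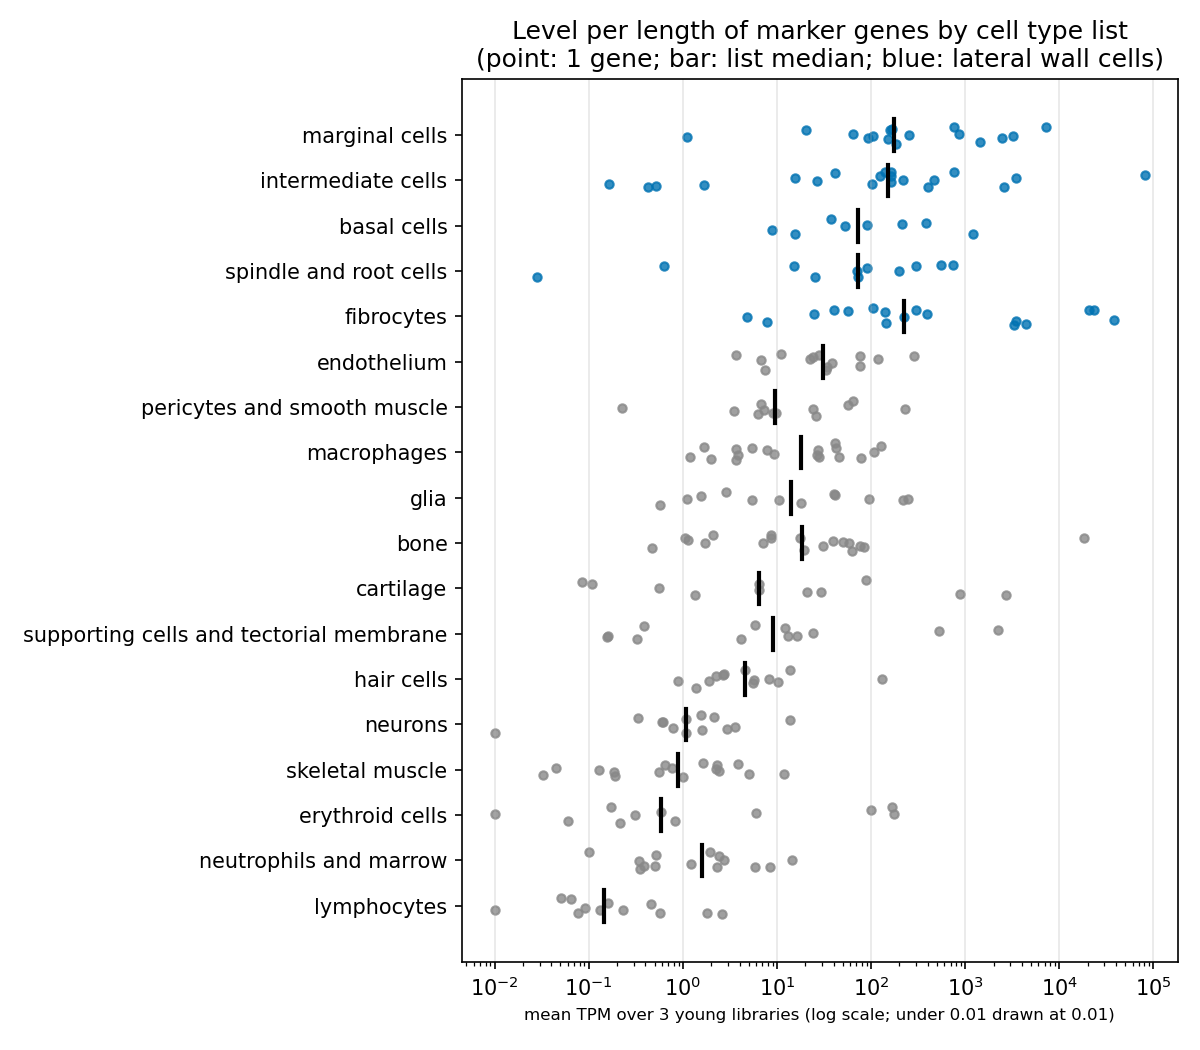
Mean level per length (TPM, log scale) of the members of the gene lists in young lateral wall; each point is 1 gene, bars are list medians, lateral wall cell types are blue and other tissues grey, and values under 0.01 are drawn at 0.01. Marginal, intermediate and fibrocyte genes lie mostly above the median of all genes (12.0 TPM), whereas lymphocyte, muscle and neuron genes lie mostly below it.

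Markers of cells that lie outside the lateral wall were also measured. Ceacam16, a protein of the tectorial membrane, stood at 11881, 7120.2 and 10019 normalised read counts (527 ± 118 TPM), although an antisense transcript makes the value uncertain. Ocm, a calcium-binding protein of outer hair cells, stood at 1339.7, 864 and 987 normalised read counts (129 ± 25.4 TPM). The hair cell list had a median of 4.62 TPM over its 13 measured members, below the 12.0 TPM of the median gene. Only 1 of the 13 was at 100 TPM or more. The summed hair cell list was 230.1, 156 and 181 TPM. Otof, needed for release from inner hair cells, stood at 687, 241 and 312 normalised read counts. Otof, Slc17a8 and Calb2 passed 2-fold and were all highest in young replicate 1, and on leaving out that library 0 hair cell genes passed 2-fold. Cartilage genes gave 2 high values, Ucma (2726 ± 52.4 TPM) and Cnmd (877 ± 127 TPM), while the defining genes Acan (6.52 ± 1.56 TPM) and Comp (0.551 ± 0.124 TPM) were low and Col10a1 had 3.15, 6.22 and 2.04 normalised read counts. Where in the lateral wall Ucma and Cnmd were expressed cannot be seen in bulk RNA.

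Bone genes differed between the mice more than the strial and ligament genes did. Bglap, which encodes osteocalcin and has a near-identical copy in Bglap2, stood at 990.3, 566 and 216 and Ibsp, bone sialoprotein, at 1312, 604 and 282 normalised read counts. Both were highest in young replicate 1 and lowest in young replicate 3. Of the 17 bone genes with a mean of at least 50, 14 were highest in young replicate 1, and 6 (Bglap, Bglap2, Ibsp, Sost and Mmp9 among them) passed 2-fold, against 2.85% of all genes. This count cannot rise when a library is left out. The 6 became 2 (Bglap and Ibsp) on leaving out young replicate 1, 5 on leaving out 2 and 2 (Ibsp and Mmp9) on leaving out 3. The list's mean deviation was 0.38, -0.04 and -0.34 on the log2 scale. Col1a1 followed this order too. The part that bone of the otic capsule in the dissection has in the level of Col1a1 was not tested. Spp1, also a bone gene, stood at 363043, 336970 and 312232 normalised read counts, a spread of 1.16-fold.

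Vessel and macrophage genes were detected in every library, as most genes were. All 14 endothelial genes had a mean of at least 50, with a median of 30.6 TPM. Slco1c1, a transporter of thyroid hormone at blood-tissue barriers, led with 287 ± 54.1 TPM, and the endothelial cadherin Cdh5 stood at 38.2 ± 2.57 TPM. The pericyte gene Rgs5 was at 231 ± 13.7 TPM and Pdgfrb, the receptor that marks pericytes, at 64.6 ± 13.3 TPM. The macrophage list had a median of 18.01 TPM over 18 genes, led by Lyz2, lysozyme (127 ± 15.9 TPM), and the complement gene C1qa (107 ± 5.31 TPM). Of the 17 macrophage genes with a mean of at least 50, 14 were highest in young replicate 1. Of 14 endothelial, 11 pericyte and 17 macrophage genes with a mean of at least 50, 0 passed 2-fold, where 2.85% of all genes did. Their median SDs of log2 values (0.154, 0.232 and 0.211) were nevertheless above the 0.135 of all genes. By level, all genes had 0.160 at means of 200 to 1000 and 0.110 at 1000 to 5000. Lymphocyte genes had a median of 0.147 TPM, and Ms4a1, a B cell gene, was at 0 in 2 libraries. Hba-a1 and Hba-a2, haemoglobin genes and near-identical copies whose reads cannot be divided with certainty, stood at 1893, 1584 and 1052 and 1739, 1347 and 876 normalised read counts, highest in young replicate 1. The neutrophil gene S100a9 stood at 80.8, 72.6 and 100.1 normalised read counts. The muscle list had a median of 0.879 TPM, and its myosin gene Myh4 stood at 19.9, 8.30 and 10.2 normalised read counts.

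Genes of energy metabolism were high. The 25 nuclear genes of oxidative phosphorylation had a median of 338 TPM, and 21 were at 100 TPM or more. Of the 25, 0 passed 2-fold, where 2.85% of all genes did. Their median SD of log2 values was 0.0939, near the 0.110 of all genes at means of 1000 to 5000 and the 0.0968 at 5000 or more. All 25 were highest in young replicate 1, with a list mean deviation of 0.11, -0.04 and -0.07 on the log2 scale. Cox8a, a subunit of cytochrome oxidase, led at 2542 ± 152 TPM and stood at 19527, 17002 and 16344 normalised read counts. Of 15 mitochondrial DNA genes listed, 0 were found among the gene symbols. In glucose metabolism, Aldoa, an aldolase (1869.7 ± 36.7 TPM), and Ldhb, a lactate dehydrogenase subunit (1342 ± 65.3 TPM), were the highest. Ldhb exceeded Ldha, the other main subunit, by 2.04 ± 0.060 on the log2 scale in 3 of 3 libraries, and by 1.45 with the longest transcript. Slc2a4, the insulin-regulated glucose transporter, stood at 236, 673 and 528 normalised read counts and passed 2-fold.

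Of the 26 deafness genes of the lateral wall that were listed, all had a mean of at least 50 and 16 were at 100 TPM or more, with a median of 200.3 TPM. They ran from Coch down to Edn3, the endothelin ligand of pigment cell precursors, at 73.4, 109.9 and 34.7 normalised read counts. Crym, a thyroid hormone-binding protein of fibrocytes, was low among them at 7.84 ± 0.790 TPM. Esrrb, Col4a3 and Edn3 passed 2-fold.

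The spread between the young mice was small for most genes. The median SD of log2(value + 1) over the 13102 genes was 0.135, against 0.045 from counting alone, and the SD was above the counting value in 89.5% of genes. The common biological coefficient of variation was 0.135. The median SD was 0.242 at means of 50 to 200, 0.160 at 200 to 1000, 0.110 at 1000 to 5000 and 0.0968 at 5000 or more. The genes past 2-fold in these ranges numbered 194 of 1976, 129 of 4351, 33 of 5278 and 18 of 1497, so their share was lowest at 1000 to 5000. Of the 374, 200 were lowest in young replicate 1.

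**Figure D4:**
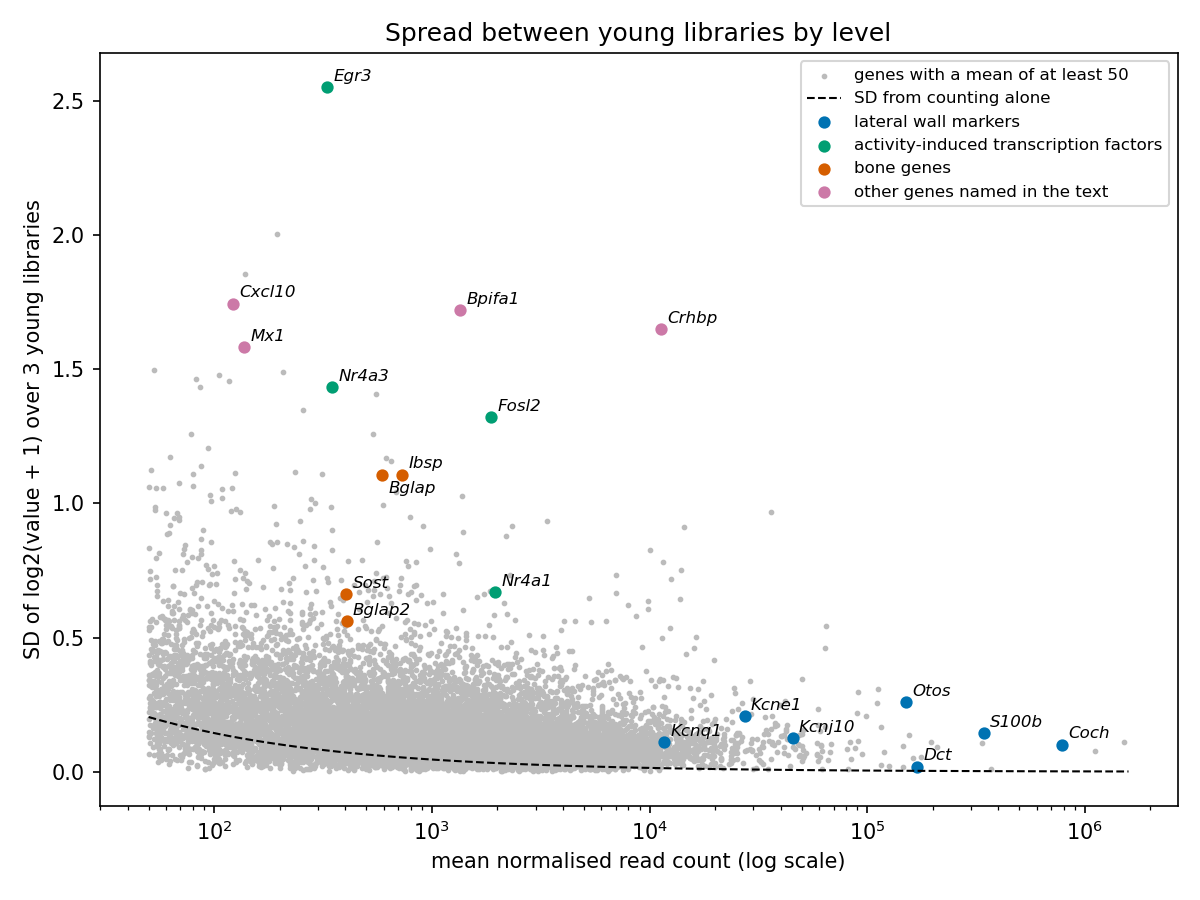
SD of log2(value + 1) over the 3 young libraries against the mean normalised read count (log scale), 1 point per gene with a mean of at least 50, with the SD from counting alone as a dashed line. The median SD falls from 0.242 at means of 50 to 200 to 0.0968 at 5000 or more, and named genes such as Egr3 lie far above it.

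Immediate early genes, which cells switch on within minutes of a stimulus, were among the most variable. Egr3, a transcription factor of this kind, had the largest SD of the genes named here (2.55), with 23.1, 144 and 826 normalised read counts, a ratio of 35.8 between young replicates 3 and 1. Nr4a3, a nuclear receptor of the same class, had the same order of libraries, 92.3, 274 and 677. Of 11 immediate early genes with a mean of at least 50, 6 (Jun, Egr1, Egr3, Atf3, Nr4a1 and Zfp36) passed 2-fold, against the 2.85% of all genes. The 6 became 4, 3 and 3 on leaving out young replicates 1, 2 and 3 in turn, and Egr3 was past 2-fold each time. They did not share 1 order. Nr4a1 was highest in young replicate 3 (1473, 1309 and 3079), Jun in young replicate 1 (2584, 1290.2 and 1834), and Zfp36 was low in young replicate 1 alone (1462, 2817 and 2942). Fos stood at 383, 549.7 and 438 normalised read counts. Of 11 heat shock genes, 0 passed 2-fold, where 2.85% of all genes did. Their median SD of log2 values was nevertheless 0.268, above the 0.135 of all genes, and 9 of the 11 were highest in young replicate 1. Cryab, a small heat shock protein, stood at 1529.5 ± 45.00 TPM. Among 15 clock genes, Nr1d1, a repressor of the clock, was the 1 past 2-fold (11783, 5321 and 8900.2 normalised read counts), and Per1 stood at 13009.8, 8376 and 12275. The labels do not give the time of dissection.

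Genes of other functions were among the 15 of largest spread. Crhbp, which binds corticotropin-releasing hormone, stood at 11022, 20714 and 2249 normalised read counts. Zbed5 stood at 320.0, 242 and 24.5 and Kif23, a kinesin of cell division, at 144, 957 and 564. Bpifa1, a secreted protein of the airway and middle ear, stood at 247, 1278 and 2519.9, highest in young replicate 3. Cxcl10, an interferon-induced chemokine (20.98, 121 and 226), and Mx1, an interferon-induced antiviral protein (37.8, 61.2 and 313), had the same order of libraries. Interferon-stimulated genes as a list did not share this order, since 6 of 16 were highest in young replicate 1. Kcna1, a potassium channel of nerve fibres, had the opposite order, 181, 39.4 and 25.5.

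**Figure D5:**
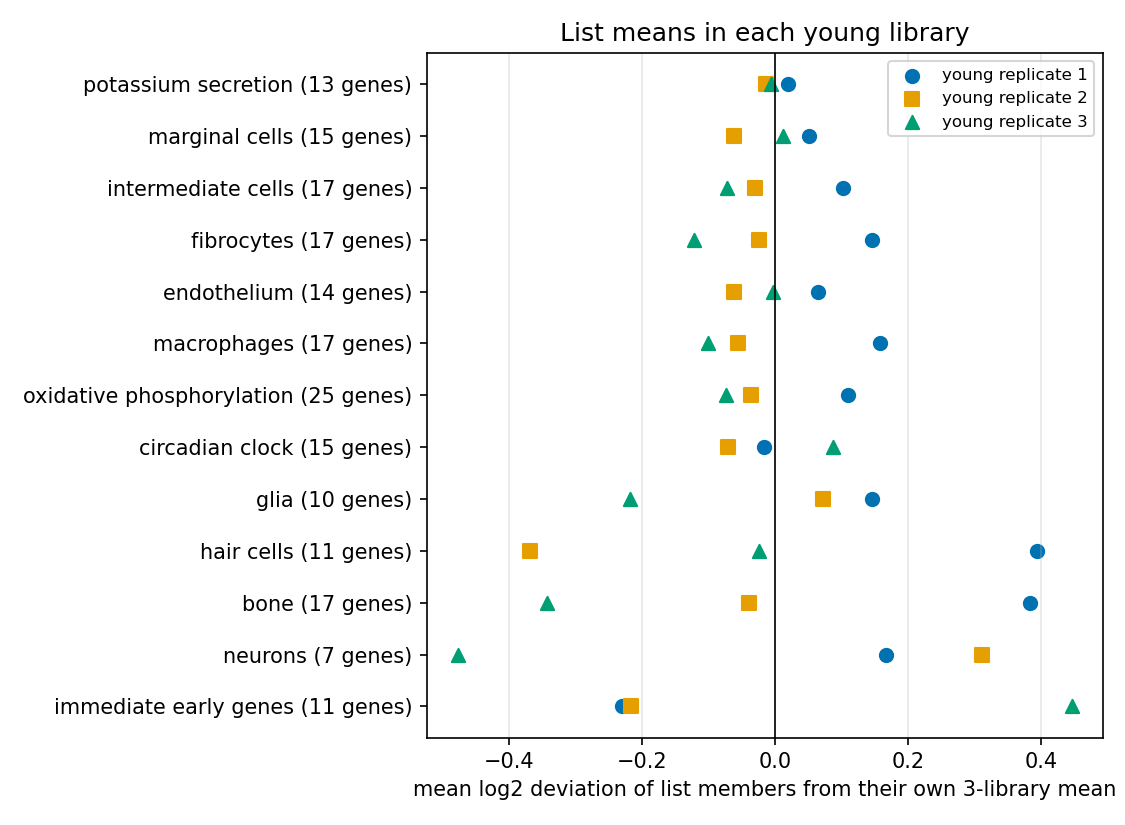
Mean deviation of each gene list from the gene averages, on the log2 scale, for the 3 young libraries. Bone genes deviate by 0.38 in young replicate 1 and -0.34 in young replicate 3, immediate early genes by 0.45 in young replicate 3, and potassium secretion genes stay within 0.02 of 0.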

How the data were processed

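Bulk RNA of the lateral walls of 3 young mice was sequenced. Per the labels' protocols, RNA was extracted with a miRNeasy kit, degraded samples were dropped and TruSeq RNA libraries were made. The submitters' processing notes name Partek, TopHat2, DESeq2 and mm10, with no version. Strand and annotation are not stated there. In the table the authors deposited, each value is a normalised signal, read counts divided by a size factor per library. Division by the value of 1 read (1.02 to 1.05) gave whole reads, within 0.1, in 99.9% of values. No count test was run and no genes were called, since there is 1 group.

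Means, ranks, shares, SDs of log2(value + 1) and ratios of the highest to the lowest library were computed (Python 3.11.15, pandas 2.3.3) with a minimum mean of 50 for the spread. The common coefficient of variation came from edgeR 4.0.16 (R 4.3.3) on the recovered reads. TPM used the union of exons in GENCODE M21 (GRCm38), which matched 16941 symbols (99.1%). Because strand is not stated, values of Aldoa, Cldn3, Col10a1, Col4a1, Col4a2, Col4a3, Col9a3, Cryab, Cndp1, Cxcl10, Cyp2f2, Jun, Malat1, Meis1, Nr1d1, Pmel, Slc2a1, Sox8, Tbx18, Trpm1 and Zfp36 are uncertain too, since their exons overlap a gene on the opposite strand. Promoters are from RefSeq. Scripts were tested on simulated data. Counting errors cover counting only.

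The members, lists and rules were chosen with earlier results of these data known. Named were the 20 highest genes by value and per length, the 4 highest and all past 2-fold of each list, the 15 of largest spread, 7 markers and fixed pairs, without unnamed models, processed pseudogenes, Xist or Y-linked genes. The rule was written to leave out sex-linked genes, but other X-linked genes such as Pou3f4 were kept. Not every gene taken this way is reported. Other genes were chosen after their values were seen. Alternatives were other scalings, the median, pseudocounts, minimum means, lengths and leaving out each library.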

Additional observations from a re-analysis of the deposited data

How the results depend on the processing

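With each young library left out in turn, the number of genes past 2-fold ranged from 105 to 249 (374 with all), the median SD of log2 values from 0.0807 to 0.134, and the coefficient of variation from 0.1004 to 0.157. The lowest value of each came without young replicate 1. The count was 1045 with a mean of at least 10 and 180 with a mean of at least 200, where more or fewer genes are counted. The counts of bone, immediate early, neuron and hair cell genes past 2-fold with a library left out were added after seeing the data. They can only fall or stay the same. Total, quantile and TMM scaling gave 358 to 370. The log2 ratio of Gjb2 over Gjb6 turned to -0.21 with the longest transcript, which shortens or lengthens genes unequally. Of 88 alternatives for gene ratios, 72 stayed within 1 SD, but most of these could not have moved. A mean with 1 library left out cannot lie more than 1 SD from the mean of all 3. Only the longest transcript could move a ratio. With it, 6 ratios stayed within 1 SD, 15 moved without changing sign and 1, Gjb2 over Gjb6, reversed. Of 42 alternatives for marker levels, 41 stayed within 1 SD. Neither the median nor a left-out library could have moved a level that far, so only total and quantile scaling were informative. The 1 that moved was Dct with total scaling, at 163811 against 169615 ± 2215 normalised read counts. The alternative without mitochondrial DNA genes gave no value, since 0 of the 15 listed were found among the gene symbols. No paired analysis was possible because there is 1 group and no result comes from a test. With 3 mice, an SD is itself imprecise, and genes under 50 normalised read counts are limited by counting.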

Other observations

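All genes in this part were chosen after their values were seen. The pituitary hormone genes Gh and Prl, which the cochlea is not known for, were measurable, Gh at 525, 1283 and 477 and Prl at 455, 1157 and 230 normalised read counts in young replicates 1, 2 and 3. Both were highest in young replicate 2. Several genes of other functions had the order young replicate 2, then 1, then 3, among them Crhbp, Cndp1, a dipeptidase (528, 1012 and 254), Tmem72 (231, 583 and 126) and Bbox1, an enzyme of carnitine synthesis (228, 486 and 118).

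Airway epithelium genes were listed as values only. Of 12 measured, 2 had a mean of at least 50, Bpifa1 and Cyp2f2 (24.1, 131 and 162), and both were highest in young replicate 3. Of 16 interferon-stimulated genes with a mean of at least 50, Mx1, Cxcl10 and Rsad2 passed 2-fold, where 2.85% of all genes did. The 16 did not share 1 order, with 6 highest in young replicate 1, 4 in young replicate 2 and 6 in young replicate 3. The long noncoding RNA Malat1 stood at 48944, 54465 and 89166, the ribosomal precursor Rn45s at 55398, 44905 and 93303, and Fosl2, an AP-1 subunit, at 676, 1029.9 and 3915 normalised read counts, each highest in young replicate 3.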
